A study of Rattus norvegicus with 24 samples.

Results

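Gene expression in rat liver was set against 5 other tissues of the same animals. Liver made up 4 of the 24 arrays, 1 each from rats aged 4, 10, 18 and 24 months, and these arrays were chosen by their tissue label alone. The other 20 arrays covered hypothalamus, pituitary, spleen lymphocytes, kidney and bone, with 1 array per tissue at each of the 4 ages. All animals were male Sprague-Dawley rats, an outbred laboratory strain, and the labels name no mutation, transgene or treatment. Each array carried RNA mixed in equal parts from 10 rats of 1 age, and the same 10 rats gave every tissue of that age. An array is therefore an average over animals. The ages served as replicates of a tissue. The spread behind each test is that between ages, pooled over all tissues after the shift common to them at each age was removed. It is not the spread between rats. Expression was measured on the Affymetrix RAE230A array, which reads each transcript with 1 or more sets of short probes and reports a brightness called signal. The authors scaled each array to a target of 500. Signals under 100 were set to 100 before log2 was taken, so a difference that involves a gene near that floor is smaller on the log2 scale than the unfloored one. Of 10411 genes with a named probe set, 9682 reached a signal of 100 on at least 4 arrays and were tested.

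The liver stands between the gut and the general circulation. Its main cell, the hepatocyte, takes up nutrients from portal blood, stores and releases glucose, turns ammonia into urea, burns and makes fatty acids, and converts cholesterol to bile acids. Hepatocytes also secrete most proteins of blood plasma, among them albumin, apolipoproteins, clotting factors and complement, and they clear drugs and steroids with cytochrome P450 and conjugating enzymes. Smaller populations line the blood channels (sinusoidal endothelium), engulf particles (Kupffer cells, the resident macrophages), store vitamin A (stellate cells) and form the bile ducts. In whole-organ RNA, fewer cells of a type and less RNA per cell cannot be told apart.

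The liver label was checked against marker genes. The summed signal of 11 hepatocyte markers lay between 190410 and 216560 on the liver arrays, against 1129 to 12868 on the other 20 arrays. None of the 11 was under 100 on all liver arrays. Kidney tubule markers (13 genes) summed to 1766 to 2231 in liver, against 82165 to 92425 in kidney, and 8 of them, including the salt carriers Slc12a1 and Slc12a3 and the water channel Aqp2, were under 100 on every liver array. Neuron markers summed to 965 to 1354 in liver, against 30407 to 37122 in hypothalamus. Lymphocyte markers summed to 1490 to 2424 in liver, against 37024 to 43594 in spleen lymphocytes. The red blood cell markers gave 5764 to 7836 in liver, against 43429 to 73981 in bone. One of the other arrays stood apart. The hypothalamus array at 10 months had a hepatocyte marker sum of 12868, against 1437 to 2909 at the other ages of that tissue, and Alb, the gene of albumin, had a signal of 9579.5 there, 14.0% of that in liver at 10 months. Of the 50 genes with the largest difference of liver from its nearest tissue, 46 had their highest hypothalamus signal on that array. Of all 399 genes higher in liver than in each other tissue, 150 did. The same share over all genes tested was not taken. Among all 20 other arrays, that array was the highest for 53 of the 399 (13.3%), against 5.37% of all genes tested. A signal of 100 or more was found there for 287 of the 399, against 258 to 273 at the other ages of hypothalamus. The share was unequal between genes. The signal on that array was 10.3% of the liver's for Rup2, 2.90% for Fgg and 0.932% for Apoa2. The array was kept. Without it the count of genes higher in liver than in each other tissue was 397, in place of 399.

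Against the mean of the other tissues, 999 genes (10.3% of those tested) were higher in liver and 1470 (15.2%) were lower, at an adjusted p under 0.05 and a difference of at least 2-fold. A stricter comparison asked for a difference from each of the 5 tissues. It found 399 genes (4.12%) higher in liver than in every other tissue and 167 (1.72%) lower than in every other tissue. All 4 liver arrays lay above all 20 other arrays for 588 genes (6.07%) and below all of them for 475 (4.91%). The median difference of liver from the mean of the others over all genes was -0.23 on the log2 scale, and centring every array on its median moved this by 0.109. Against the mean fewer genes were higher than lower, and against each tissue more were. In the stricter comparison the higher genes reached larger folds. Of the 399 higher genes, 98 were at least 16-fold over the nearest tissue and 214 at least 4-fold. Of the 167 lower genes, 0 passed 16-fold and 9 passed 4-fold, with the floor limiting how low a signal can be read. For 25 of the 399, all 20 other arrays were under 100. These genes entered the test through their liver signals alone, and their folds are lower bounds. Many of the higher genes were also bright. A signal of 10000 or more on all 4 liver arrays was found for 102 of the genes tested, and 75 of those were among the 399. As a description, the 399 genes held 30.5% to 32.9% of the summed signal of a liver array, against 1.51% to 3.75% of that of the other arrays.

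Kidney was the closest neighbour. Liver differed by at least 2-fold from kidney in 850 genes that were higher (8.78%) and 1299 that were lower (13.4%), against hypothalamus in 1378 (14.2%) and 1918 (19.8%). Over genes, the correlation of log2 signals was 0.954 to 0.967 between liver arrays of different age. It was 0.671 to 0.689 between liver and kidney arrays and at most 0.559 between liver and any other tissue. This is a correlation across genes, which are not independent replicates. Kidney was the nearest tissue for 153 of the 399 higher genes (38.3%) and for 54 of the 167 lower ones (32.3%), against 28.6% of all genes tested. A further 600 genes were higher than the mean of the other tissues but did not pass against each of them. Kidney was the nearest tissue for 310 of these 600, and in 137 the kidney mean was at least that of liver.

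The 15 genes with the largest difference from their nearest tissue are known as products of hepatocytes. They fall into secreted proteins, cytochrome P450 enzymes and 1 intracellular carrier, and for all 15 the highest signal outside the liver was on the hypothalamus array at 10 months. Apoa2, a structural protein of high-density lipoprotein, had signals of 39486, 38822, 37251 and 31317 in liver at 4, 10, 18 and 24 months. On the other 20 arrays its signal ran from 9.69 with a median of 25.0 up to 362. All liver arrays were above all others, and the difference was 8.39 ± 0.20 (SE, log2) from the mean of the others and 8.05 from hypothalamus, the nearest (adjusted p = 2.8e-16 against each). Fabp1, the fatty acid carrier of hepatocyte cytoplasm, had 46362, 43096, 45916 and 35651 in liver, against a lowest of 11.4, a median of 68.8 and a highest of 573 elsewhere (8.56 ± 0.24 from the mean). Ambp, the precursor of alpha-1-microglobulin and bikunin, had 31233, 29455, 28939 and 31276 in liver, against 24.5, 78.8 and 242 as lowest, median and highest elsewhere. In these 3 genes every liver array lay far above every other array.

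The fibrinogen chains belong to the same group. Fgg, the gamma chain, had 34120, 33448, 36260 and 37153 in liver, against 18.8, 89.6 and 968 as lowest, median and highest elsewhere. Fga, the alpha chain, had 22820, 17338, 20865 and 18319 in liver, against 5.34, 42.3 and 322. The liver arrays of both chains were above all others. The beta chain Fgb depended on the probe set. Its most widely detected probe set, which the rule kept, had only 183, 154, 223 and 212 in liver, against 44.1, 109 and 157 elsewhere, and did not reach 2-fold (0.73 ± 0.14). A second probe set of Fgb had 27209, 29864, 31532 and 31189 in liver, against 4.24, 6.70 and 335 elsewhere. The same held for Apob, the structural protein of very-low-density lipoprotein, with 256, 282, 334 and 351 in the probe set kept and 21937, 21133, 20253 and 16780 in the other. Taking each gene's probe set with the highest single signal, a rule added after the data were seen, gave 405 genes higher than in each tissue, 397 of them shared with the 399, and both genes were among the added ones.

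Among the cytochrome P450 enzymes of the 15, Cyp3a2 had 20334, 16061, 18047 and 16036 in liver, against 2.66, 5.40 and 124 as lowest, median and highest elsewhere. Cyp2b3 had 23010, 21130, 19582 and 18616 in liver, against 18.4, 74.1 and 170.4. Another 4 genes of the Cyp2c subfamily completed the group. Cyp2c22 had its lowest liver signal at 14704, Cyp2c7 at 29102, Cyp2c6v1 at 21719 and Cyp2c13 at 20050, while their highest signals elsewhere were 161, 809.6, 561 and 628 in that order. Genes of this subfamily are close in sequence, so a probe set may read more than 1 of them. The remaining members were C4bpa (lowest in liver 13555, highest elsewhere 125), which restrains the complement cascade, Apoa1 (15102 and 161), the main protein of high-density lipoprotein, Hpx (27514 and 882), which carries free heme, and Obp3 (8227 and 122), a small carrier protein of the lipocalin family. The liver signals of Obp3 were 24279, 15229, 13450 and 8227 at 4, 10, 18 and 24 months.

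**Figure D1:**
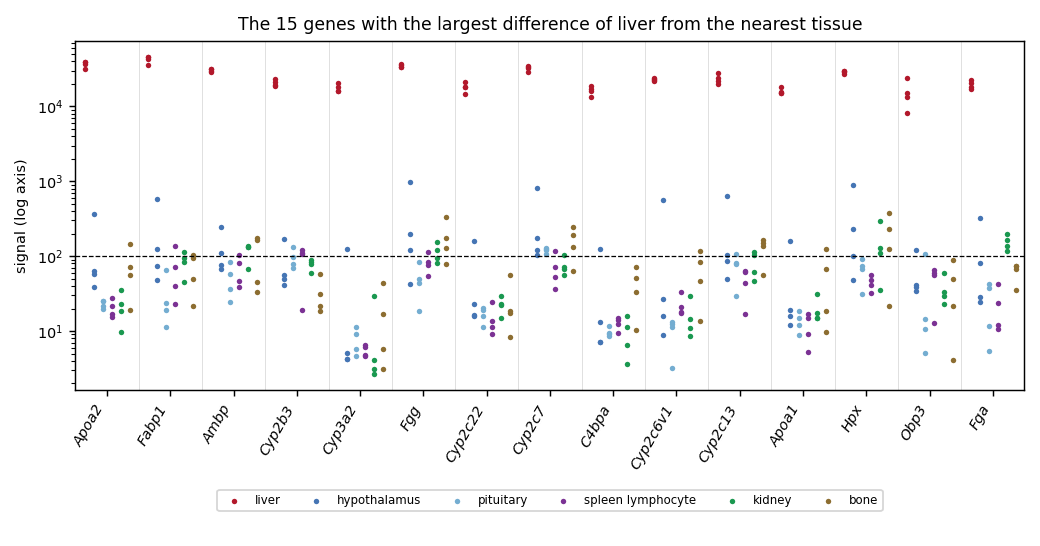
Signals of the 15 genes on a log axis, 1 point per array, with the 4 liver arrays at the left of each gene followed by hypothalamus, pituitary, spleen lymphocytes, kidney and bone, and the floor of 100 as a dashed line. The lowest liver point is that of Obp3 at 24 months (8227), while the highest point elsewhere is that of Fgg in hypothalamus at 10 months (968).

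The sequences just before the start of these genes were read from RefSeq (build GRCr8) for the genes that could be matched by a unique symbol, which were 317 of the 399 higher genes, 128 of the 167 lower genes and 7555 of those tested. Liver genes are known to be driven by a small set of factors that act together, among them HNF1, HNF4, C/EBP and FOXA proteins. Windows of 120 bases ending at the base before the start are shown for Alb and for genes far down or up the ranking of differences. Apart from Alb, each gene was picked because its window holds a match. The windows shown therefore do not tell how common such matches are. The windows hold the half-site GTTAAT, bound by HNF1, or the stretch CAAAGTCCA, bound by HNF4, and, for Bex3 and Gstp1, which were lower in liver, the GC box GGGCGG. Capitals mark the match on either strand, so that ATTAAC in Plg is GTTAAT on the other strand.
Alb: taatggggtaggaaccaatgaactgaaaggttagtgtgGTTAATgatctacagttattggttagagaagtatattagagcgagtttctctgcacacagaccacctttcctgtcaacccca
Fabp1: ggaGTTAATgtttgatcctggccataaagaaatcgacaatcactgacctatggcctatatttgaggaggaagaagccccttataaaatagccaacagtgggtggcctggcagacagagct
C4bpa: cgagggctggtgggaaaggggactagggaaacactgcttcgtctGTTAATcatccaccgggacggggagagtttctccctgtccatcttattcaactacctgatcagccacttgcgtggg
Plg: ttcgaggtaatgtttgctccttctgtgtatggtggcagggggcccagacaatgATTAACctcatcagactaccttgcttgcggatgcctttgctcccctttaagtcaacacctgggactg
Cyp3a2: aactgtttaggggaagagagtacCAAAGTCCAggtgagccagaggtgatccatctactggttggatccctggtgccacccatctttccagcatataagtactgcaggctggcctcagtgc
Cyp3a23-3a1: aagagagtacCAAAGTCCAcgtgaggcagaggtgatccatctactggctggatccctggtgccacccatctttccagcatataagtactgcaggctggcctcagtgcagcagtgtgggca
Baat: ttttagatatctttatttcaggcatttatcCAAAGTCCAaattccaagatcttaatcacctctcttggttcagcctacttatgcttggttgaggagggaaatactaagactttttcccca
Bex3: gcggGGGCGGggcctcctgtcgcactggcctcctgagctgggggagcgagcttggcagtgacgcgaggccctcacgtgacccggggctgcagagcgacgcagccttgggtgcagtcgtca
Gstp1: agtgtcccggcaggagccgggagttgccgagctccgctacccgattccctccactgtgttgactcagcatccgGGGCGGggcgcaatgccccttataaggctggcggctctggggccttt

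In GRCr8 these windows are Alb chr14:17906980-17907099 (minus strand), Fabp1 chr4:104749220-104749339 (plus), C4bpa chr13:44663472-44663591 (minus), Plg chr1:50915407-50915526 (minus), Cyp3a2 chr12:14343858-14343977 (minus), Cyp3a23-3a1 chr12:14398804-14398923 (minus), Baat chr5:68656138-68656257 (minus), Bex3 chrX:104064776-104064895 (plus) and Gstp1 chr1:210769706-210769825 (minus). Over the 250 bases before the start, GTTAAT on either strand was found in 9.46% of the higher genes, against 1.56% of the lower genes and 4.28% of all genes tested. CAAAGTCCA was found in 6 of the higher genes (1.89%), against 1 of the lower (0.781%) and 0.410% of all tested. Cyp3a2 and Cyp3a23-3a1, whose windows above are nearly alike, are among the 6. TTGCNNAA, a core bound by C/EBP proteins, was found in 17.4%, against 5.47% and 7.81%. For FOXA proteins, TGTTTAC was found in 5.05% of the higher genes, against 4.69% of the lower and 2.04% of all tested, and TGTTTGC in 6.31%, against 0.781% and 2.78%. The windows of the lower genes held more G and C. GGGCGG was found in 42.6% of the higher genes, against 75.0% of the lower and 57.9% of all tested, and the median number of CG pairs was 6 in the higher genes, against 19.5 in the lower and 16 in all tested. TATAAA on the gene's own strand at the usual distance of a TATA box was found in 7.26% of the higher genes, against 0% and 2.21%. Of all 24206 promoters in the table, 6.56% held GTTAAT and 33.6% held GGGCGG, and their median number of CG pairs was 6, the same as in the higher genes. The shares of all promoters were 0.343% for CAAAGTCCA, 9.26% for TTGCNNAA, 3.30% for TGTTTAC and 4.01% for TGTTTGC. A match is a description of the letters and not of a site in use.

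The counts of each list are to be read beside the shares over all genes tested. These were 10.3% higher and 15.2% lower than the mean of the others, and 4.12% and 1.72% against each tissue. Plasma proteins had the highest median difference of the 20 lists. Of 30 carriers and protease inhibitors tested, 29 were higher in liver than the mean of the others and 28 higher than in each other tissue, 0 were lower, and the median difference was 6.32 (all genes -0.23). Alb had 72484, 68520, 67352 and 71478 in liver, against 68.3, 355 and 9579.5 as lowest, median and highest elsewhere. Its difference of 7.28 ± 0.59 carried the widest error of the group, and the hypothalamus array at 10 months was its highest outside the liver. Serpina1, the inhibitor of neutrophil elastase, had 44557, 40963, 40684 and 42176 in liver, against 145, 199 and 723. Gc, the carrier of vitamin D, had 43672, 40764, 40999 and 43833 in liver, against 85.2, 213 and 1456. The liver signals of these genes lay within a narrow band over the 4 ages, well clear of all others. Apoh, Fetub and Serpina3c were 208-fold, 202-fold and 205-fold over the mean of the others. The exception was A2m, the rat acute-phase macroglobulin, with 618, 106, 568 and 998 in liver, against 32.7, 224 and 963 elsewhere, a difference of 0.64 ± 0.36 that did not pass (adjusted p = 0.13). Without the liver array at 10 months it was 1.33 and passed (limma, adjusted p = 0.000663). A1bg passed against the mean, with 126, 109, 117 and 1247 in liver, against up to 132 elsewhere, and without the liver array at 24 months its difference was 0.20 and the call was lost. A2m and A1bg were picked after their values were seen.

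Genes of clotting and of clot removal were mostly higher in liver. Of 16 genes tested, 11 were higher, all 11 of them than in each other tissue, and 2 were lower (12.5%, against 15.2% of all genes), with a median of 5.21. F2, prothrombin, had 16619, 17268, 17522 and 15975 in liver, against 42.0, 128 and 368 elsewhere. Plg, plasminogen, had 16962, 14662, 14125 and 18776 in liver, against 10.4, 32.7 and 311. Proc, the anticoagulant protein C, had 4642, 5326, 4474 and 4883, against 6.92, 14.0 and 437, the last in kidney. All liver arrays of these 3 genes were above all others. The 2 lower genes were Tfpi, the tissue factor pathway inhibitor, and Plat, the tissue plasminogen activator, both known from endothelium. Tfpi had 280.1, 203, 237 and 299 in liver, against a median of 833 elsewhere (-1.32 ± 0.15), and the mean of its probe sets gave -0.65, under 2-fold. Plat had 104, 252, 319.6 and 126 in liver, against a median of 827 (-1.16 ± 0.20), and without the liver array at 4 months its difference was -0.86 and no longer reached 2-fold. Thbd, thrombomodulin, and Vwf, von Willebrand factor, also of endothelium and picked after their values were seen, were not called (-0.09 ± 0.18 and -0.77 ± 0.13).

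Complement is made by hepatocytes and by macrophages. Of 19 genes tested, 13 were higher in liver, 12 of them than in each tissue, and 0 were lower (median 4.08). C3, the central component, had 42367, 43189, 43057 and 43877 in liver, against 199, 475 and 4123 elsewhere, with bone the nearest tissue, 15.8-fold lower than liver. C9, a part of the membrane attack complex, had 29065, 29494, 32769 and 27515, against 165, 250.2 and 490.1. Cfi, which cleaves active C3, had 9691, 14971, 13440 and 16511, against 23.0, 108 and 183. No other array reached the liver signals of these 3 genes. C1qa, a subunit of C1q, which macrophages make, did not reach 2-fold, with 1079, 1460.1, 1265 and 2206 in liver and a highest signal of 3997 in bone. C1s, a protease of the same C1 complex, had 8649.9, 7872, 9859 and 8432 in liver, against 82.6, 359.6 and 1668 elsewhere.

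Apolipoproteins and enzymes of lipoprotein handling were higher in liver for 14 of 16 genes, 12 of them than in each tissue (median 5.42). Apoc3, which slows the clearance of triglyceride-rich particles, had 47811, 42283, 43470 and 39788 in liver, against 105, 306 and 1196 elsewhere. Apoa4 had 6885, 5289, 3912 and 6464 in liver and was under 100 on all 20 other arrays, so it was at least 55.1-fold higher. Lipc, hepatic lipase, had 7712, 9124, 7617 and 6530.2 in liver, against 6.35, 14.7 and 233. Neither Apoa4 nor Lipc overlapped with the other tissues. Lcat, which esterifies cholesterol on high-density lipoprotein, had 13386, 13576, 10329 and 8449, against 24.1, 136 and 974. Lpl, the lipase of muscle and fat, was the only member called lower, with 135, 218, 257 and 299.5 in liver, against 24.4, 505 and 1825. Its difference of -1.02 ± 0.16 sat at the 2-fold limit and fell under it without liver at 4 months (-0.81), hypothalamus at 4 months (-0.99) or bone at 4 months (-0.99), and just under it without hypothalamus at 10 months. Apoe, made by many cells and named here after its values were seen, also passed against each tissue, with 32910, 30717, 29711 and 34800 in liver, against up to 15817 in hypothalamus. Its difference of 1.43 from hypothalamus was 0.13 after quantile normalisation and 0.72 with the mean of its probe sets, and the call was lost in both.

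Bile acid genes were all higher in liver. All 21 genes tested passed against the mean of the others, 13 passed against each tissue, and the median difference was 3.69. Baat, which joins bile acids to taurine and glycine, had 12093, 14028, 11596 and 9756 in liver, against 8.84, 16.5 and 114 as lowest, median and highest elsewhere. Slc27a5, the bile acid-CoA ligase before it, had 8144, 12613, 10199 and 7916, against 21.4, 84.7 and 119. Slc10a1, the sodium-coupled uptake carrier, had 10680, 8086, 7901 and 7306, against 34.2, 102 and 212. The liver signals of these genes did not overlap with those elsewhere. Abcb11, the pump that exports bile salts, had 2073, 2343, 1868 and 2006, against 21.8, 77.4 and 156. The 2 hydroxylases that set the amount and the kind of bile acid had different age patterns. Cyp7a1, the rate-limiting enzyme, had 4449.7, 1313, 766 and 1387 at 4, 10, 18 and 24 months. Cyp8b1, which leads to cholic acid, had 3324, 8498, 7396 and 11629. With 1 array per age these age values have no test. The other 8 did not pass against each tissue, among them Nr1h4, the nuclear receptor for bile acids, with 1001, 1534, 1706 and 1065 in liver, against up to 918 in kidney (0.63 ± 0.15 from kidney).

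Genes of fatty acid and cholesterol synthesis were mostly higher in liver. Of 28 tested, 21 were higher in liver, 14 of them than in each tissue, and 0 were lower, with a median of 1.77. Scd, the delta-9 desaturase, had 10195, 2639.7, 5986 and 7423 in liver, against 129, 277 and 508 elsewhere. Nsdhl, of the late cholesterol pathway, had 3655, 3433, 2825 and 3246, against 23.2, 173 and 287. Cyp51, the lanosterol demethylase, had 5241, 5999, 5426 and 6278, against 172, 609 and 2179, the highest in hypothalamus. No liver array of these genes overlapped with another tissue. Thrsp, a lipogenic protein that responds to thyroid hormone, had 6453, 3027, 2915 and 6452, against 109.6, 234 and 1076. The list counted here holds Scd but not the other desaturase form, Scd2, so the 0 lower does not cover it. Scd2 was among the 10 lowest genes, with 257, 156, 179.8 and 185 in liver, against 577, 2166 and 10420 elsewhere.

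The urea cycle and the breakdown of amino acids were high in liver and, in part, shared with kidney. Of 39 genes tested, 36 were higher in liver and 0 lower (median 3.59), but only 19 passed against each tissue, and kidney was the nearest tissue for 26 (66.7%, against 28.6% of all genes). The median difference was 1.02 from kidney and between 3.82 and 4.06 from the other 4 tissues. Otc, which makes citrulline in the urea cycle, had 5211, 3807, 3611 and 4213 in liver and was under 100 on all other arrays, so it was at least 41.7-fold higher in liver. Arg1, which releases urea, had 18344, 13163, 13036 and 12868, against 93.4, 204 and 552. Cps1, which brings ammonia into the cycle, had 3519, 3274, 2249 and 4849, against 27.4, 74.7 and 142, and a second probe set of it read 14743 to 25351 in liver. The 2 middle enzymes were shared with kidney. Ass1 had 17590, 18455, 12458 and 20469 in liver, against up to 12053 in kidney, and Asl had 1640, 2775, 1661 and 1884, against up to 1330.3 in kidney. Neither passed against kidney (0.78 ± 0.30 and 0.71 ± 0.25), and both were named after their values were seen. Tdo2, which opens the ring of tryptophan, had 16400, 12442, 10801 and 13956 in liver, against 16.1, 83.4 and 232. Mat1a, the methionine adenosyltransferase of liver, had 12625, 10961, 9699 and 9398, against 6.49, 49.9 and 127. Hpd, of tyrosine breakdown, had 14987, 18121, 13254 and 19085 in liver, against up to 11229 in kidney, and its difference of 0.78 ± 0.34 from kidney did not pass (adjusted p = 0.22).

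The same sharing with kidney ran through glucose production and the burning of fat. Glucose genes were higher in liver for 15 of 17 tested, 9 of them than in each tissue (median 2.58, and 1.63 from kidney). Slc2a2, the glucose carrier of hepatocytes, had 5656, 4616, 5042 and 5315 in liver, against 3.62, 9.97 and 1796, the last in kidney, and passed. Gckr, the regulator of glucokinase, had 2072, 2453, 2754 and 2255, against 22.7, 133 and 239.5. Pck1, which starts gluconeogenesis, had 30754, 22622, 20347 and 16145 in liver, against up to 14269 in kidney (0.81 ± 0.35, adjusted p = 0.20). Fbp1, a later step, had 9044, 11552, 9560.3 and 9974 in liver, against up to 13919 in kidney (-0.44 ± 0.14 from kidney). Kidney is the other organ known to release glucose.

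Fatty acid oxidation and ketone bodies gave 17 of 24 genes higher, 4 of them than in each tissue, and 1 lower, and kidney was nearest for 18 of the 24 (75.0%, against 28.6% of all genes). The median difference was 0.55 from kidney and 2.06 to 2.64 from the others. Acsl1, which activates long-chain fatty acids, had 17704, 13520, 13807 and 13030 in liver, against 236, 1071 and 2338. Ehhadh, the peroxisomal bifunctional enzyme, had 2563, 2557, 2461 and 2565, against up to 2449.7 in kidney. Cyp4a3, a fatty acid omega-hydroxylase, differed by -0.51 ± 0.25 from kidney, with 2970.2, 4065, 4128 and 4314 in liver, against up to 6264 in kidney. The lower gene was Oxct1, the enzyme that lets tissues burn the ketone bodies that liver exports. It had 155, 95.3, 46.2 and 212 in liver, against 491, 1053 and 6399 elsewhere, all liver arrays below all others (-3.33 ± 0.17). Bdh1, which makes 3-hydroxybutyrate, had 998, 1252, 1000 and 1192 in liver, against 16.4, 144 and 450.1.

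Peroxisomal genes were higher for 17 of 27, 10 of them than in each tissue, with 0 lower (median 2.29, and 0.56 from kidney). Uox, urate oxidase, had 8547, 10010, 7698 and 8014 in liver, against 244, 459.8 and 769. Cat, catalase, named after its values were seen, had 24997, 21887, 20811 and 19037, against 579, 1437 and 9224, the highest in kidney. Hao2, a hydroxy acid oxidase, had 7244, 7180.3, 6266 and 5936 in liver against up to 18444 in kidney (-1.30 ± 0.15 from kidney). Pex3, which is needed to assemble the organelle, was not called, with 120.0, 130.3, 45.8 and 239 in liver, against 106, 262 and 552 (-0.83 ± 0.21). It was called lower without the liver array at 24 months (-1.07) and with a floor of 50 (-1.08).

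**Figure D2:**
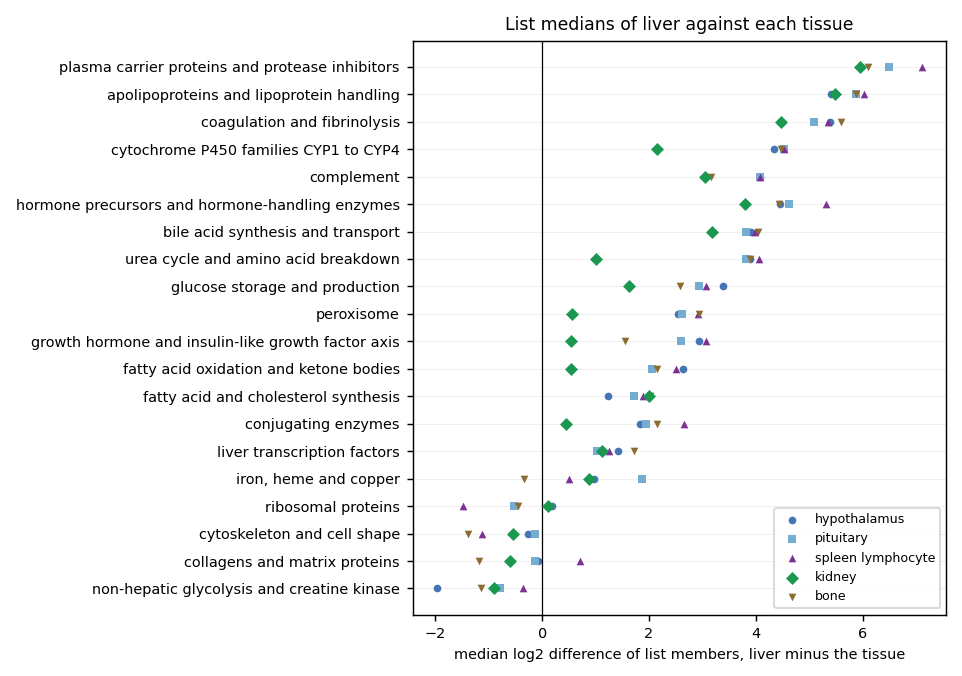
Median log2 difference of the members of 20 gene lists, liver minus each of the other 5 tissues, 1 symbol per tissue, with 0 marking no difference. The kidney symbol stands apart to the left of the others for urea cycle and amino acid breakdown (1.02, against 3.82 to 4.06) and for fatty acid oxidation (0.55, against 2.06 to 2.64), while for plasma carriers all 5 symbols lie between 5.95 and 7.12.

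Of 38 cytochrome P450 genes of families CYP1 to CYP4 tested, 30 were higher in liver, 25 of them than in each tissue, and 0 were lower (median 4.13). These are the enzymes that oxidise steroids, fatty acids and foreign compounds. Cyp2e1, which oxidises ethanol, had 16296, 18172, 16587 and 19322 in liver, against 97.6, 176 and 6077, the last in kidney. Cyp2d3 had 10677, 8978, 9550.5 and 7387 in liver and was under 100 on every other array, so it was at least 90.7-fold higher. Cyp4a1 had 6008, 6472, 7191 and 4100.3, against 65.8, 123 and 2020.5. Cyp2s1, which was not called, had 194, 125, 182 and 231 in liver, against 86.5, 222 and 645. Cyp2c23, a P450 known in rat kidney and named after its values were seen, had 15231, 17221, 14444 and 14807 in liver, against up to 13261 in kidney.

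Conjugating enzymes, which attach sulfate, glucuronic acid, glutathione or acetyl groups, were mostly higher in liver, with some lower. Of 43 tested, 27 were higher, 15 of them than in each tissue, and 5 were lower, 1 of them than in each (median 1.50). The lower share was 11.6%, against 15.2% of all genes. Sult1e1, the oestrogen sulfotransferase, had 20917, 22889, 14999 and 11365 in liver, against 55.8, 131 and 291. Ugt2b15 had 6713, 6853, 5944 and 4877 and was under 100 elsewhere, so it was at least 60.4-fold higher in liver. Sult1c3 had 10924, 16050, 11924 and 9405, against 12.8, 151 and 436. The gene lower than in every tissue was Gstp1, the pi-class glutathione transferase, with 294, 454, 333 and 570.5 in liver, against 1486, 3701 and 9301 elsewhere (-3.19 ± 0.18). All liver arrays of Gstp1 were below all others. Gstm5, of the mu class, was lower than the mean of the others, with 255, 241, 364 and 342 in liver, against 222, 606 and 3143 (-1.17 ± 0.15). Gsta1, Gstm1 and Gstz1, picked after the values were seen, were higher, with log2 differences of 3.81, 3.44 and 3.75.

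Hormone precursors and hormone-handling genes were higher in liver for 17 of 19 tested, 14 of them than in each tissue, with 0 lower (median 4.06). Ttr, the carrier of thyroxine and of retinol-binding protein, had 40331, 37838, 36750 and 32615 in liver, against 110.5, 328 and 1099.9. Serpina6, the carrier of corticosterone, had 7148, 5486, 4229.5 and 7036 and was under 100 on all others, so it was at least 58.4-fold higher in liver. Hamp, hepcidin, the iron hormone, had 17771, 21387, 22671 and 15322, against 70.6, 225 and 568. Rarres2, chemerin, had 16700, 19510, 16086 and 17314, against 52.9, 362 and 1291. Hsd11b1, which regenerates active glucocorticoid, had 9195, 10063, 9499.9 and 9764 in liver but up to 8984 in kidney, and did not pass there (0.26 ± 0.30).

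Genes of the growth hormone axis were mostly higher in liver, with some lower. Of 24 genes, 14 were higher, 10 of them than in each tissue, and 3 were lower (12.5%, against 15.2% of all genes), 1 of them than in each (median 2.23). Ghr, the receptor, had 6587, 4527, 4858 and 4525 in liver, against 1.38, 21.8 and 441. Igf1, its main secreted product, had 11280, 10603, 9239 and 7163, against 147, 373 and 1681, the last in bone. Rup2, a rat urinary protein, had 39299, 34440, 36154 and 31295 in liver, against 123, 215 and 3537. Each of these 3 was higher on every liver array than on any other array. Binding proteins of the growth factors were found on both sides. Igfbp4, Igfbp1 and Igfbp3, picked after their values were seen, were higher, with log2 differences of 3.29, 3.25 and 1.08, and without the liver array at 10 months that of Igfbp3 was 0.97, under 2-fold. The lower genes were 2 other binding proteins and Igf2, the form that is active before birth. Igfbp2 had 87.9, 64.0, 241 and 219 in liver, against 366, 787 and 1370.3, below every other array (-2.23 ± 0.22). Igfbp5 had 133, 135, 117 and 173, against a median of 1014 (-2.97 ± 0.15), and differed by 0.46 ± 0.19 from spleen lymphocytes. Igf2 had 101, 50, 104 and 165, against a median of 217 (-1.30 ± 0.20), and was not called with the mean of its probe sets (-0.33) or with a floor of 200 (-0.72). Cyp2c11 and Cyp2c12 are known as male and female forms set by growth hormone in rats. Cyp2c11 had 30190, 25543, 22056 and 19496 at 4, 10, 18 and 24 months, against up to 3319.7 elsewhere. Cyp2c12, the female form, had 1982, 1306, 1023 and 13266, and was under 100 on every other array.

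Iron, heme and copper genes were higher for 7 of 16 and lower for 2 (12.5%, against 15.2% of all genes), with a median of 0.33. Among those higher were Hp, haptoglobin, with 48226, 47286, 48252 and 52677 in liver, against 29.1, 269 and 6603, and Cp, the copper carrier ceruloplasmin, with 6860, 9256, 9143 and 13641, against 81.7, 788 and 1596. Of the 2 enzymes that start heme synthesis, the general form Alas1 had 3119.9, 1220.3, 1117 and 1194 in liver, against 154, 371 and 1803. The red cell form Alas2 had 317, 154, 94.5 and 255, against up to 13937 in bone.

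Liver identity is known to rest on a network of transcription factors. Of 27 factors of liver, 17 were higher, 11 of them than in each tissue, and 1 was lower (median 1.22). Foxa2 had 1514, 2555, 2428 and 2693 in liver, against 67.1, 95.0 and 188. Onecut1, also known as HNF6, had 563, 1422, 1507 and 1451, against 5.43, 18.5 and 105. Hhex, a homeobox factor of liver bud and blood, had 2014, 3597, 3204 and 3364, against 19.6, 96.9 and 949, the last in spleen lymphocytes. Prox1 had 3461, 3003, 3595 and 2771, against 72.6, 346 and 1353. The groups did not overlap for these 4 genes. Nr0b2, the partner that curbs bile acid synthesis, had 1388, 363, 361 and 369, against 13.7, 117 and 183. Dbp, a clock-controlled activator, was lower, with 126, 57.0, 59.0 and 64.8 in liver, against 78.5, 386 and 902. With a floor of 200 the difference of Dbp was -0.84, under 2-fold. Hnf4a, a factor that defines hepatocytes, had 132, 184, 251 and 273 in liver, against 13.1, 92.4 and 342, the last in kidney, and did not reach 2-fold. It was named after its values were seen.

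**Figure D3:**
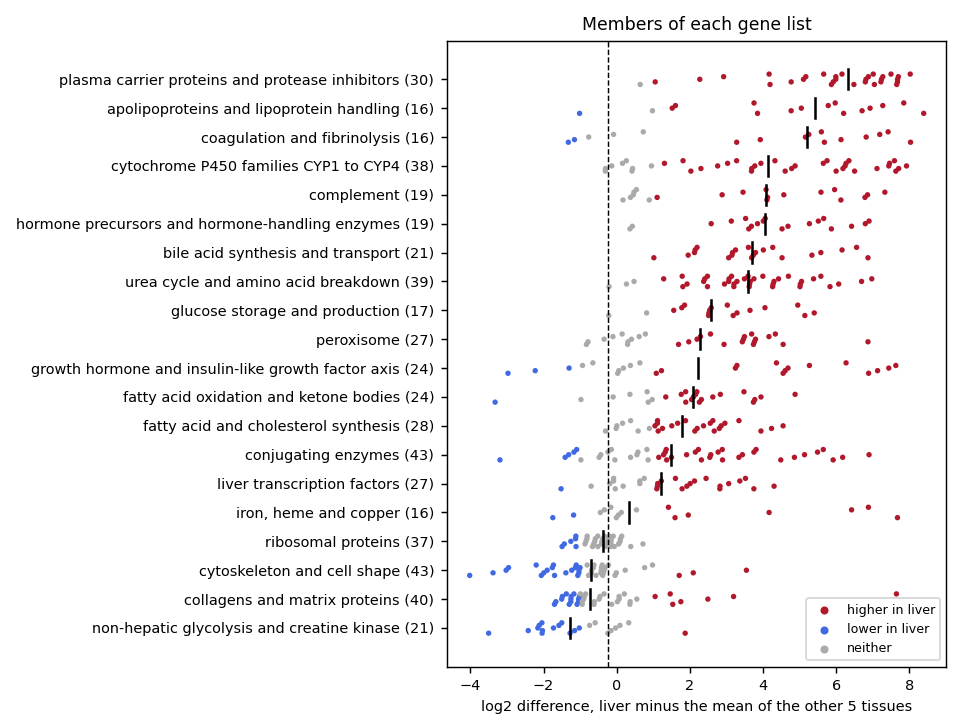
Log2 difference of liver minus the mean of the other 5 tissues for every tested member of 20 gene lists (number tested in brackets), 1 point per gene, with the list median as a black bar and the median of all genes (-0.23) as a dashed line. Red points passed as higher in liver, blue as lower, grey neither. List medians run between 6.32 for plasma carriers and -1.28 for glycolysis outside the liver.

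Several enzymes and carriers come in a liver form and in forms of other tissues. Of 25 families listed, 16 had at least 1 form of each kind tested. The liver form was higher in 14 of the 16 and lower in 0. Of the 27 other forms, 12 were lower in liver and 4 were higher. These calls are against the mean of the other tissues, where 15.2% of all genes were lower and 10.3% higher. Of the 12, only Mat2a, Pygb, Slc25a12 and Pfkp were also lower than in each tissue. Mat2a, Pygb and Slc25a12 each lost that call under at least 1 alternative. Among the 4 higher forms, Acsl4 and Acsl5 were higher than in each tissue (1.50 from hypothalamus and 1.01 from bone). In 8 families the liver form was higher and another form lower. Glycogen phosphorylase was such a pair. Pygl had 4034, 3934, 4254 and 3760.1 in liver, against 235, 708 and 2531, while Pygb, the brain form, had 276, 253, 264 and 85.5, against 372, 726 and 3314. Mat1a had its counterpart in Mat2a, with 886, 726, 817 and 572 in liver, against 1438, 2069.5 and 6703. Among glycogen synthases, Gys2 had 749, 582, 537 and 451 in liver and was under 100 elsewhere, while Gys1 was under 100 on all 4 liver arrays and reached 481 in hypothalamus. Gys1 differed by only -0.19 from spleen lymphocytes, and with a floor of 200 its difference from the mean was -0.43, under 2-fold. For the mitochondrial aspartate carriers, Slc25a13 had 3829, 3496, 2817 and 2899.6, against a median of 313, and Slc25a12 had 155, 127, 164 and 169, against a median of 487. Among the fatty acid binding proteins, beside Fabp1, Fabp3 and Fabp4 were lower in liver (-1.65 ± 0.27 and -1.24 ± 0.22), whereas Fabp7, the brain form, was higher, with 3130.3, 1950.5, 2079 and 1581 in liver, against up to 2294 in hypothalamus. Fabp3 did not reach 2-fold without the kidney arrays (-0.95), nor Fabp4 with a floor of 200 (-0.70). The 2 families whose liver form was not higher were phosphofructokinase and iodothyronine deiodinase. Pfkl had 198, 219.9, 148 and 203, against a median of 321 (-0.66 ± 0.24), and Dio1 had 333, 134, 167 and 231, against a median of 116 (0.43 ± 0.20).

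The 10 genes lower than in each tissue with the largest shortfall against the nearest tissue were Stmn1, Scd2, Bex3, Gstp1, Oxct1, Elmo2, Cd9, Rabepk, Cd24 and Phgdh. Stmn1, which takes microtubules apart, had 261, 226, 200.1 and 281 in liver, against 1523, 4961 and 7444 as lowest, median and highest elsewhere, a difference of -4.02 ± 0.11. Bex3, a small adaptor of growth factor signalling, had 62.9, 33.1, 57.4 and 41.1, against 257, 2866 and 8813. Cd9, a tetraspanin of the cell surface, had 47.6, 23.1, 32.3 and 17.1, against 319.6, 1344 and 2358. Bex3, Cd9 and Elmo2 were under 100 on all 4 liver arrays, so Cd9, for example, was at least 10.3-fold lower in liver than the mean of the others. Phgdh, which opens serine synthesis, had 212, 57.5, 180.0 and 154, against 543, 878 and 1904. Probe sets of 1 gene did not always go the same way. Of the 33 lower genes with several probe sets, 8 had all of them at least 2-fold lower in liver and 8 had at least 1 that was higher. Of 65 such higher genes, 44 had all of them at least 2-fold higher and 3 had at least 1 that was lower. Scd2 differed by -0.95 from its nearest tissue with the mean of its probe sets, under 2-fold.

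Of 21 genes of glycolysis outside the liver and of creatine kinase, 13 were lower in liver, 4 of them than in each tissue, and 1 was higher (median -1.28). The lower share was 61.9% and the higher share 4.76%, against 15.2% and 10.3% of all genes. Ldhb, the heart form of lactate dehydrogenase, had 83.7, 224, 226 and 319.5 in liver, against 456, 1514 and 11085 (-3.50 ± 0.20). Hk1, the general hexokinase, had 250.2, 167, 259.8 and 151, against 511, 1108 and 2681. Aldoa, the muscle form of aldolase, had 1436, 1497, 1459 and 1839.5, against 2837, 6532 and 15240, and without the liver array at 4 months its difference from the nearest tissue was -0.99, just under 2-fold. All liver arrays of these 3 genes were below all others. The gene higher in liver was Ldha, the other subunit of lactate dehydrogenase, with 10422, 10755, 11416 and 10139, against 1551, 2728 and 5588 (1.87 ± 0.15), higher than in each tissue. After quantile normalisation it differed by 0.59 from bone and no longer passed there (limma, adjusted p = 0.0785).

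The cytoskeleton list had 19 of 43 genes lower, 5 of them than in each tissue, and 3 higher (median -0.70). The lower share was 44.2%, against 15.2% of all genes, and the higher share 6.98%, under the 10.3% of all genes. Ezr, a linker of membrane and actin, had 98.1, 229.7, 229 and 247 in liver, against 499, 2254 and 5641. Flna, filamin A, had 121, 141, 19.7 and 218, against 277, 789 and 6267. The 3 higher genes were the keratins Krt8 and Krt18, which pair with each other in hepatocytes, and Rdx, radixin, the linker of the bile canaliculus. Krt18 had 2469, 3164, 3824 and 4121 in liver, against 22.6, 234 and 1826, Krt8 had 1084, 2103, 1775 and 2312, against up to 2022 in kidney, and Rdx had 2052, 2141, 2024 and 1742, against up to 1571 in kidney. Krt18 was the 1 gene past the test against each tissue, at 1.01 from pituitary, and this difference was between 0.91 and 0.98 without pituitary at 10 or 18 months or liver at 18 or 24 months. Rdx reached 2-fold over kidney, with 1.01 to 1.07, without liver at 18 or 24 months or kidney at 18 months.

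Collagens and matrix proteins were lower for 14 of 40 and higher for 7 (median -0.74), with a median of -1.18 against bone and 0.70 against spleen lymphocytes. These shares were 35.0% lower and 17.5% higher, against 15.2% and 10.3% of all genes. Vtn, vitronectin, which hepatocytes send into plasma, had 25977, 26110, 26464 and 24238 in liver, against 7.16, 35.2 and 472. Timp1, Timp2 and Timp3, inhibitors of matrix proteases, were all lower (-1.70 ± 0.38, -1.66 ± 0.19 and -1.51 ± 0.16), although Timp2 did not reach 2-fold with the mean of its probe sets (-0.96) and Timp3 did not without the kidney arrays (-0.97). Ribosomal proteins, a list with no tie to liver, gave 6 of 37 lower and 0 higher. The lower share was 16.2%, against 15.2% of all genes, and the median was -0.38, near that of all genes. Rpl3 had 4284, 5899.6, 5662 and 7999.8 in liver, against 7971, 15918 and 33687.

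Markers of the smaller liver cell populations were read beside these lists. Clec4f, the defining receptor of rodent Kupffer cells, had 2546, 4177, 3233 and 3067 in liver, against 28.3, 76.7 and 174. The other 7 macrophage markers, shared with macrophages elsewhere, were not higher, and Lyz2 was lower (-1.78 ± 0.17), with the highest signals in bone. For sinusoidal endothelium, 4 of 10 markers were higher and 1 lower (10.0%, against 15.2% of all genes). The lower marker was Plvap, under 100 on all 4 liver arrays. Lyve1 had 1815, 1226, 1085 and 1556 in liver, against 14.1, 141 and 369. For stellate cells and fibroblasts, 4 of 12 were higher and 2 lower (16.7%, against 15.2% of all genes). The 2 lower markers were Dcn (-1.49 ± 0.32) and Col1a1 (-1.09 ± 0.14), both with their highest signals in bone. Reln had 1311, 1325, 1504 and 1403 in liver, against 155, 299 and 1492, and Lrat, which stores vitamin A as ester, had 319, 249.8, 118 and 248, against 7.14, 35.0 and 120.3. Without the liver array at 4 months the difference of Lrat was 0.96, under 2-fold. That of Reln was 0.99 with the mean of its probe sets, also under 2-fold. For bile duct cells, 0 of 9 markers were higher and 3 lower (33.3%, against 15.2% of all genes), with Cldn4 and Cldn7 under 100 on all liver arrays. The summed signal of these 9 markers was 1822 to 2194 in liver, against 30819 to 36306 in kidney.

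The median SD of log2 signal over the 4 ages was 0.225 among the 399 genes, against 0.243 among all tested, and the highest liver signal was at least 2-fold over the lowest in 56 of the 399 (14.0%), against 1407 (14.5%) of all tested. The widest was Ugt2b, a glucuronosyltransferase, with 12225, 16.9, 10413 and 14704 at 4, 10, 18 and 24 months. Its second probe set was low at the same age, with 749, 18.8, 718 and 1330.5. Cyp2c12 followed, then Sult2a6, a bile acid and steroid sulfotransferase, with 204, 416, 482 and 1499 and under 100 on every other array. Serpinb9b, an intracellular serpin, had 43.3, 264, 212 and 695. Without the liver array at 24 months its difference from the mean was 0.79 and its call was lost. Cdh17, a cadherin of liver and intestine, had 289, 1300.1, 1152 and 445, against up to 298 elsewhere. Retsat, which saturates retinol, had 12229, 3144, 11349 and 7117 in liver, and kidney was also lowest at 10 months, with 5130.2, 1313.8, 2732.5 and 3267.3. Tomm34, of mitochondrial import, had 473, 98.1, 318 and 289 in liver, against 419, 778 and 1005, and its call against each tissue was lost without the liver array at 10 months (-0.76 from kidney). Scd, Cyp7a1 and Nr0b2, given above, completed the 10. Retsat was lowest at 10 months in all 6 tissues. Each age is a single array, so none of these changes has a test.

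**Figure D4:**
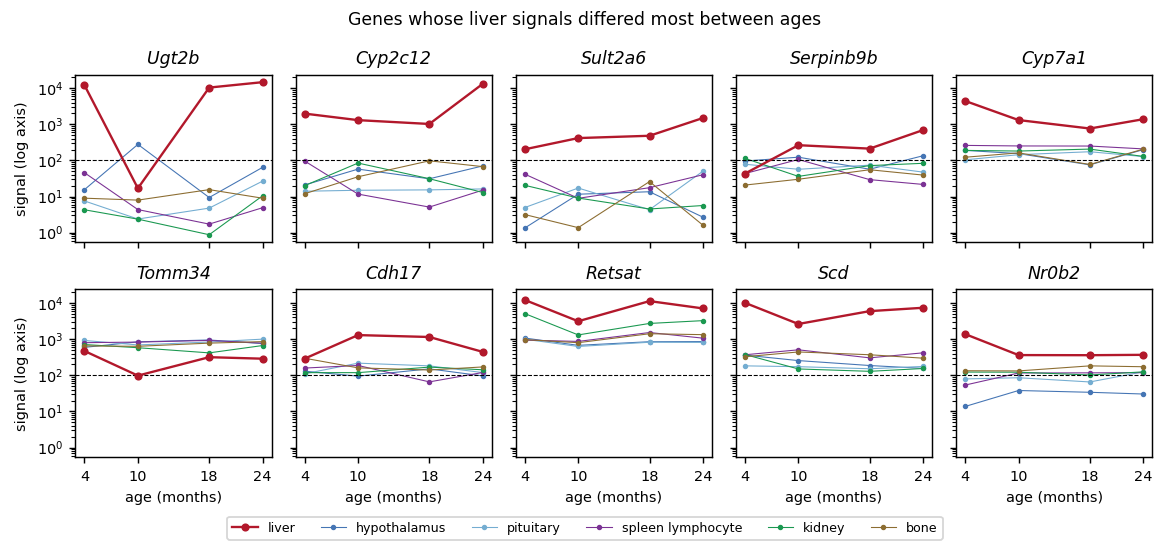
Signals on a log axis over age in months for the 10 genes whose liver signals differed most between ages among those past the test against each tissue, 1 line per tissue with liver in thick red and the floor of 100 dashed. Ugt2b drops to 16.9 in liver at 10 months, Cyp2c12 is highest at 24 months (13266), and Retsat is lowest at 10 months in liver (3144) and in kidney (1313.8).

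The genes higher in liver also lay beside each other in the genome. In the order of RefSeq genes restricted to those tested, 107 of the 399 (26.8%) had a neighbour of the same call, against 6.98% of the other genes, while of the 167 lower genes 6 had one (3.59%, against 3.41%). The longest run had 11 genes and joined Ifi27 and Ifi27l2b with the serpins Serpina10, Serpina6, Serpina1, Serpina11, Serpina4, Serpina3m, Serpina3c, Serpina3l and Serpina3n. The run rests in part on Ifi27 and Ifi27l2b, which lost the call after quantile normalisation (0.83 and 0.87 from the nearest tissue), and Ifi27l2b also without the liver array at 4 months (0.90). A run of 6 held Cyp2c11, Cyp2c6v1, Cyp2c7, Cyp2c12, Cyp2c13 and Cyp2c22. Runs of 4 were Apoa1, Apoc3, Apoa4 and Apoa5, then Cyp2a1, Cyp2a2, Cyp2f4 and Cyp2t1, and then Kng2l1, Hrg, Fetub and Ahsg. Cyp2t1 lost the call without the kidney array at 18 months (0.95). Alb stood in a run of 3 with Afp and Afm. Serpins and P450 genes of such runs are close copies, whose probe sets can read each other's transcripts, and that share was not tested. The genes of these runs were named after their calls and positions were seen.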

How the data were processed

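RNA from liver and 5 other tissues of male rats was hybridised to Affymetrix RAE230A arrays, 1 array per tissue and age. The deposited values are signal intensity on a linear scale, which the authors computed with MAS5 and scaled to a target of 500. Detection calls were not used here, and array number limits the precision. Of 15923 probe sets, 57 were controls, 12783 were paired with 1 gene symbol, 312 with several and 2771 with none. Only those with 1 symbol were used, giving 10411 genes. For genes with several probe sets, the one at 100 or more on the most arrays was kept.

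Signals were floored at 100 and log2 transformed. Genes at 100 or more on at least 4 arrays were fitted with limma 3.58.1 in R 4.3.3, with tissue and age as factors and Benjamini-Hochberg adjustment over all 9682 genes. Liver was compared with the mean of the other tissues and with each of them. In the test against each tissue a gene whose differences shared a sign took the largest of its p-values, and the nearest tissue had to differ by 2-fold. Errors are standard errors (SE) of log2 differences. Where all other arrays were under 100 a fold is a lower bound. Because 1 set of 10 rats supplied all tissues at a given age, age was kept as the replicate block. With age in the fit, the shift common to the tissues at each age is removed. The p-values measure the spread between ages that remains, pooled over all tissues, and not that between rats. That spread may hold age effects of single tissues.

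The fit was tested on simulated data. Named genes were the 15 largest and 10 lowest differences from the nearest tissue, up to 8 members of each list with the largest differences and up to 4 against its direction, all isoform forms, and the 10 genes most variable over ages. Others are named as picked after their values were seen. The members and lists were chosen with earlier results of these data known. Promoters were matched by unique symbol to RefSeq (GRCr8). Adrenal gland was not analysed here. Alternatives covered the floor, a pseudocount, the filter, normalisation, the choice of probe set, the block, array weights and arrays left out.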

Additional observations from a re-analysis of the deposited data

Results flagged for a closer look

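In 17 of 186 groups of 4 arrays, 1 array lay so far from the other 3 that its gap divided by the whole range exceeded Dixon's critical value. Chance gives about 1 in 20 for groups not chosen by their values. That rate cannot be set against these groups, since some genes were named for their spread over ages or after their values were seen. Of these, 16 were liver signals of single genes, and 8 of the 17 spanned at least 2-fold. Ugt2b stood lowest at 10 months (16.947), and its other probe set was low on the same array.

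At 4 months the high signals were Alas1 (3119.9), Nr0b2 (1388.5), Arg1 (18344), Dbp (125.88) and Cd24 (101.04), and the low ones were Onecut1 (563.03), Ezr (98.091) and Cyp4a3 (2970.2). Serpina3m was high (7137.3) and Vwf low (132.26) at 10 months, and Ehhadh low at 18 months (2461.4). At 24 months A1bg (1246.8), Aldoa (1839.5) and Igf2 (164.99) were high and Pygb (85.548) was low. The values of Cd24 and Dbp were set against 3 arrays at the floor. Outside the liver, the hepatocyte marker sum of pituitary was high at 18 months (1336.1).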

How the results depend on the processing

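Of 184 genes named, 156 stayed on the same side of the threshold against the mean of the other tissues under all 40 alternatives in which they were tested. The 1 gene that changed direction was Thbd, which was not called and lay near 0, with 0.036 after quantile normalisation, 0.060 after median centring, 0.15 with the mean of probe sets, 0.050 without the kidney arrays and -0.19 to 0.14 when 1 array was left out. Another 20 lost the call under some alternative, 6 of them when 1 array was left out, and 7 gained it. Leaving out 1 array at a time gave 958 to 1001 genes higher and 1421 to 1539 lower than the mean of the others, and 374 to 403 higher and 153 to 196 lower than in each tissue. Without the replicate block of age, the counts were 999 and 1470 against the mean and 398 and 168 against each tissue. Without the kidney arrays, 648 genes were higher and 290 lower than in each of the 4 remaining tissues, a comparison with fewer tissues to pass. A floor of 200 left 97 genes lower than in each tissue, since it raises the lowest value that can be read. With the filter at 12 arrays in place of 4, 294 genes were higher than in each tissue, all of them among the 399. That filter drops genes under 100 on more than 12 of the 24 arrays. A fit of liver against the other arrays as 1 group gave 818 genes lower than the mean, with the differences between those tissues counted as error. Centring on the array median gave 48.9% of calls as higher, in place of 40.5%, and quantile normalisation 46.6%. With no detection calls, a signal near 100 cannot be told from background, which limits how far down a gene lower in liver can be measured.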
